A study of Mus musculus with 5 samples.

Results

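Interferon-stimulated genes are the genes that cells switch on when they sense interferon. A list of 32 of them was followed through 5 single-cell RNA libraries of mouse liver and aorta. The list was set by name, and all 32 genes are present in each of the 3 deposited count tables, among 18307 genes in the table of liver on the ApoE background, 24309 in the aorta table and 22194 in the table of liver with no background named. The liver library labelled DKO on the ApoE background and the one labelled WT on the same background hold 4331 cells each. The aorta libraries, labelled DKO and WT on the ApoE background, hold 2800 cells each. The last liver library, of 616 cells, is labelled WT and names no background. DKO is not spelled out in the labels, which speak of liver DKO mice, while the series title concerns liver epsins, endocytic adaptor proteins. The labels give no strain, allele, promoter driving a deletion, age, sex or diet, the nature of the ApoE background is not stated, and an isolation procedure is given for liver only. A protocol shared by all libraries mentions 3 mice without tying them to libraries. Each group is 1 library, so no difference here has a replicate check or a p-value, and every interval below covers counting error only.

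Interferons bind receptors on the cell surface, and the receptors' kinases activate STAT proteins. Type I and III interferons lead to a complex with STAT2 and IRF9 that binds the interferon-stimulated response element (ISRE), and interferon gamma acts at gamma-activated sites (GAS). The genes switched on sense foreign nucleic acid, carry the signal onward, block viral replication or attack vacuoles that hold pathogens, and many are also present at a low level in resting cells.

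The promoters of the listed genes are shown first because interferon signalling acts on such elements. RefSeq promoter windows on the GRCm38.p6 build, each 300 bases long and ending 50 bases after a gene's start, were found for 27 of the 32 genes. Both strands were searched for the ISRE core (GAAA, any 2 bases, GAAA) and for GAS (TTC, any 3 bases, GAA, which reads the same on both strands). The ISRE core was in the windows of 16 of the 27 genes and GAS in 7; 5 genes held both and 9 neither. By window, the ISRE core was in 53.1% of the members' windows, against 3.44% of all 32851 windows in the table, and GAS in 21.9%, against 8.3%. All 3 nucleic acid sensors with a window and 5 of the 6 interferon-inducible GTPases held the ISRE core, and Isg15 held 3 copies. A match is a description of letters, not evidence of binding. The 4 stretches below belong to genes that the results turn on, with the matches in capitals: the most abundant member (Ifitm3), 2 members that stood high in a few liver cells (Ifit1 and Rsad2), and a sensor that stood high in a few aortic cells (Ifih1).
Ifitm3, chr7:141010714-141010743, minus strand, the first 30 bases after the start: gGAAAAGGAAAcTTCTGAGAAACCGAAAct
Ifit1, chr19:34640639-34640888, plus strand, the 250 bases before the start: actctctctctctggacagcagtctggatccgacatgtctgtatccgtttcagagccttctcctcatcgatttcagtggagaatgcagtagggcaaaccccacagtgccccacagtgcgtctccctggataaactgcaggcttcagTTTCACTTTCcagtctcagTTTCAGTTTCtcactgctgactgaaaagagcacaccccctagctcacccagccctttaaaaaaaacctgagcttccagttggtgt
Rsad2, chr12:26456453-26456702, minus strand, the 250 bases before the start: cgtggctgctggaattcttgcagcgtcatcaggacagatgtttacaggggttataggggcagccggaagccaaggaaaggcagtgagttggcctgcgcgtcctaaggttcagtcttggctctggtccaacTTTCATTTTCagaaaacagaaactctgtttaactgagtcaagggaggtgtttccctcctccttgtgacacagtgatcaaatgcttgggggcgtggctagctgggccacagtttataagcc
Ifih1, chr2:62646206-62646235, minus strand, 30 bases around its match: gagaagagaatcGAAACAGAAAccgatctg
Positions after a start count the start itself as base 1, so the Ifitm3 stretch opens at base 2. In Ifitm3 an ISRE core at bases 3 to 12 is followed by a GAS at bases 14 to 22, which overlaps a further ISRE core at bases 20 to 29. Ifit1 has ISRE cores read on the other strand, 104 to 95 and 85 to 76 bases before the start. Rsad2 has 1, also on the other strand, 120 to 111 bases before the start, and Ifih1 has 1 at bases 33 to 42 after it.

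Some values of the libraries bear on all that follows. The UMI (unique molecular identifier) marks single RNA molecules, so a count does not grow with transcript length, and levels are given as counts per 1000000 UMIs of a cell class (CPM). The libraries hold 6228458 to 10999072 UMIs, apart from 1883798 in the library with no background named, and the median cell has 1552 to 1773.5 UMIs on the ApoE background and 2771.5 without it. Pairs of libraries share 0 to 7 cell barcodes. Epn1, which encodes an epsin, stood at 71.2 CPM in the hepatocytes labelled DKO, against 58.7 CPM in those labelled WT, and Epn2 at 8.62, against 7.64 CPM. The part of these genes that was deleted is not given and the tags lie at 3′ ends, so these values check nothing, and the libraries are called by their labels. Where the authors' cell names go against the leading genes, the names are kept as labels: their aortic "adipocytes" are led by fibroblast genes such as Pi16, and 1 cluster of "hematopoietic stem cells" (HS3) by the cartilage genes Col2a1 and Acan. Liver cluster 14, labelled hepatocytes, is led by haemoglobin genes and was kept out of the hepatocyte class. Fewer cells of a type and less RNA per cell cannot be told apart in sums over a whole library.

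By level, Ifitm3 led the list in every library. It encodes a membrane protein that blocks the fusion of incoming viruses with endosomes, and it held 45.8% of all members' UMIs in the liver labelled DKO and 60.3% in the liver labelled WT. Its share was 34.5% in the aorta labelled DKO, 30.5% in the aorta labelled WT and 54.9% in the liver with no background named. After it came, in the ApoE liver table, Ly6e, a membrane-anchored protein that restricts coronaviruses, then Bst2 (tetherin, which holds budding virions on the cell), Gbp7 (a guanylate-binding GTPase), Ifi27l2a and Ifih1 (MDA5, a sensor of long double-stranded RNA). In the aorta table the order was Ifitm3, Irf1, Ly6e, Ifi27l2a, Rsad2 and Bst2. Irf1, a transcription factor of the interferon gamma response, was abundant in aortic smooth muscle and scarce in hepatocytes. It stood at 253 CPM in aortic smooth muscle labelled DKO and 350 CPM in that labelled WT. In the hepatocyte classes of those genotypes it stood at 7.42 and 5.25 CPM. T cells of the tissues were closer: 69.6 and 64.9 CPM in liver T cells labelled DKO and WT, and 82.9 and 61.7 CPM in the aortic subtype TC1. The liver and aorta tables were deposited separately, and tissue cannot be told apart from table.

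The liver cell types differed by member. Among the authors' cell types with at least 20 cells in a library, hepatocytes had the lowest CPM for 12 of the 32 members in the library labelled DKO and for 14 in that labelled WT. Another type was thus lowest for the majority of members. Many of those lowest values were 0 UMIs in a small class, whose interval reached above the hepatocyte level. Gbp3, for example, had 0 UMIs in the neutrophils labelled DKO (interval 0 to 51.1 CPM), against 20.1 CPM in the hepatocytes. In the library labelled DKO, cells labelled Kupffer (the resident macrophages of the liver), neutrophils and T cells had the highest CPM for 9 members each. In that labelled WT, Kupffer-labelled cells did so for 18 members (10 by a mean over cells) and T cells for 9. These counts are not over the same types, since the 17 neutrophils labelled WT were too few to enter them; Oasl2, for example, stood at 422 CPM in those neutrophils and 52.9 CPM in the Kupffer-labelled cells. The interval of the highest type lay apart from that of the next for none of the 9 Kupffer leads in the library labelled DKO. In that labelled WT it did so for Ifit3 and Irf7 only. The 17 neutrophils left out there stood at 151 CPM for Ifit3 and 60.2 CPM for Irf7, against 75.6 and 60.5 CPM in Kupffer-labelled cells. Ifi27l2a, a small interferon-induced membrane protein, showed the widest span: it stood at 2.07 CPM in the DKO hepatocyte class and 2.74 CPM in the WT one, against 406 and 598 CPM in Kupffer-labelled cells and 1080 and 964 CPM in neutrophils. B cells stood at 283 CPM in the library labelled DKO and 1253 CPM in that labelled WT. Hepatocytes thus held almost none of a transcript that was prominent in Kupffer-labelled cells, neutrophils and B cells. Trim30a, Samd9l and Oasl2 also stood low in hepatocytes. In aorta the macrophage label was highest for 9 members in the library labelled DKO and for 4 in that labelled WT, and the endothelial label for 4 and 15. No endothelial lead had an interval apart from that of the next type. Among macrophage leads, Ifi27l2a did in both libraries and Ifih1 in that labelled DKO only. The types differed here too: 85 B cells labelled WT entered, while the 14 labelled DKO were too few.

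**Figure D1:**
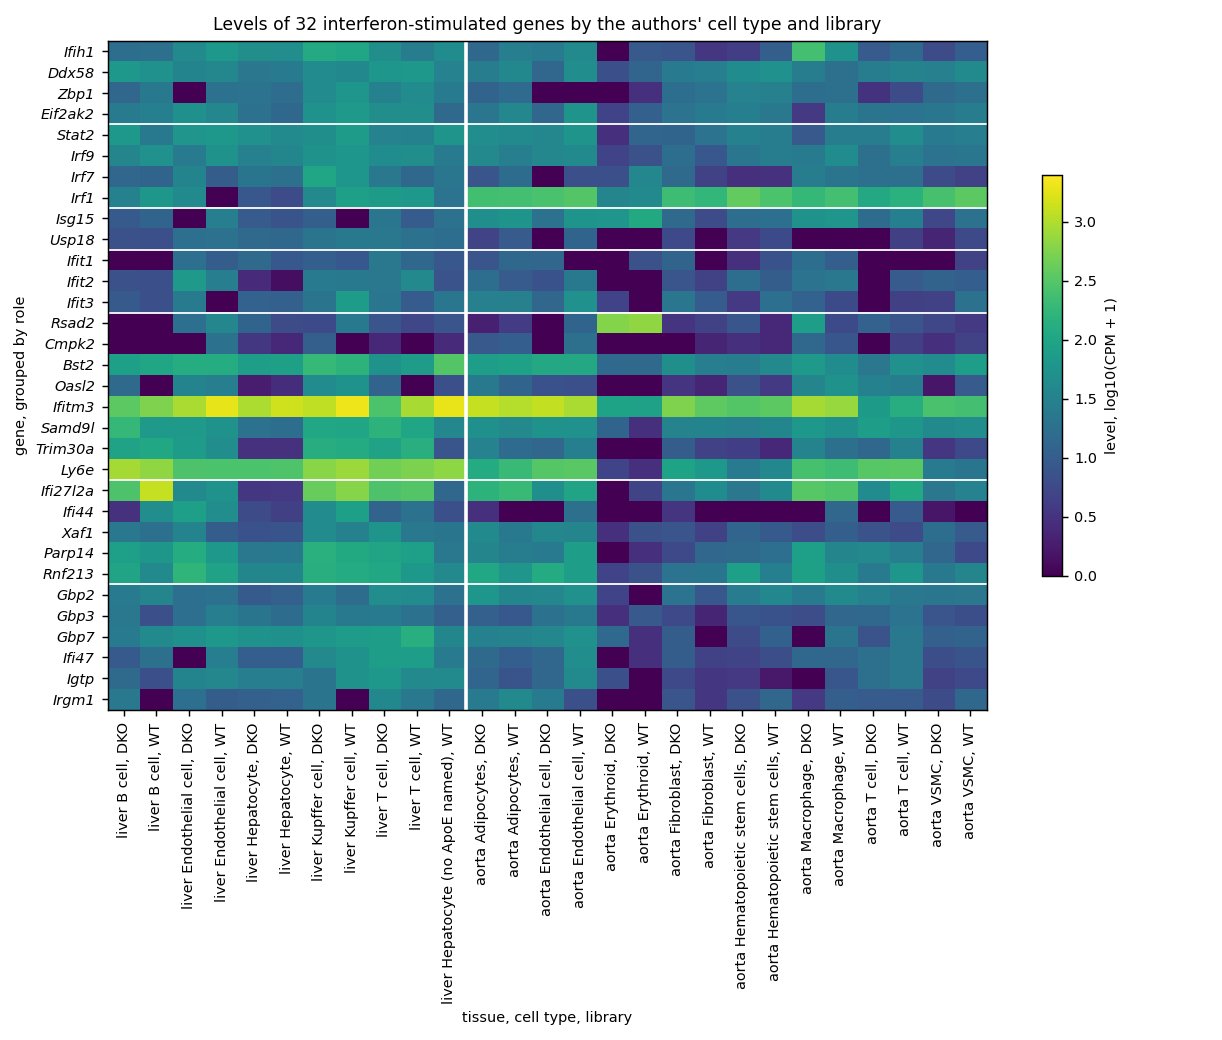
Levels of the 32 genes as log10(CPM + 1), a color per gene (rows, grouped by role with white lines) and per cell type and library (columns, DKO left of WT, liver left of the thick line). Ifitm3 is bright in nearly every column, Irf1 is brighter in aortic smooth muscle than in hepatocytes, Ifi27l2a is dark in hepatocytes, and Rsad2 is brightest in aortic erythroid cells.

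The first comparison set hepatocytes of the liver labelled DKO against those labelled WT, both on the ApoE background. The class holds 3213 and 4015 cells. Its clusters were unevenly held: cluster 3 had 146 cells labelled DKO and 663 labelled WT, and cluster 6 had 89 and 410. Clusters 2 and 7 went the other way, with 791 and 479 cells and with 462 and 214. A ratio over the class therefore mixes this makeup with the level within clusters, and the part of each was not tested. Ifitm3 was lower and Ifit1 higher in the library labelled DKO, and most of the list differed little. Of 31 members with at least 20 UMIs in both libraries together, 2 had a CPM ratio of 1.5 or more (Ifit1 and Cmpk2) and 2 a ratio of 1/1.5 or less (Ifitm3 and Oasl2), which is 6.45% each way. Over all 11035 genes with as many UMIs the shares were 4.99% higher and 5.8% lower, so the members' counts lay near those of genes in general. The members' median log2 ratio was 0.06, against 0.00 for all genes. With mitochondrial, haemoglobin and 6 other abundant transcripts left out of the totals, 4 members were past the ratio on the high side and 1 on the low side. Mitochondrial genes took 11.4% of UMIs in the DKO hepatocytes and 7.98% in the WT ones, and Gm42418, a transcript that overlaps ribosomal RNA, took 38878 and 23346 CPM.

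Ifitm3 had 8793 UMIs, or 960 CPM, in the hepatocytes labelled DKO and 12680 UMIs, or 1446 CPM, in those labelled WT, a ratio of 0.66 (95% interval 0.65 to 0.68). It was lower in the library labelled DKO in each of the 10 clusters of the class. Clusters 0, 1, 2 and 6 were past the 1.5-fold limit, with ratios of 0.60, 0.66, 0.53 and 0.58. In the deepest clusters (5, 7 and 8 as 1 class) the ratio was 0.78, and with the abundant transcripts left out of the totals it was 0.71, both short of the limit. Alb, the albumin gene, stood at 37794 CPM in the DKO class and 44388 CPM in the WT class. The neighbouring Ifitm2, near enough in sequence that reads may be split between the genes, stood at 197 and 455 CPM, a ratio of 0.43. Without Ifitm3, Ly6e and Bst2 the other 29 members together made up 490 CPM in the library labelled DKO and 450 CPM in that labelled WT.

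Ifit1 binds viral RNA that lacks the cap of host messages. It had 130 UMIs in 72 cells labelled DKO and 67 UMIs in 61 cells labelled WT (14.2 and 7.64 CPM, ratio 1.86, 1.37 to 2.53). The family members Ifit3, with 97 and 87 UMIs (ratio 1.07, 0.79 to 1.44), and Ifit2, with 15 and 3 UMIs, did not share a clear direction: Ifit2 stayed under 20 UMIs in all, and reads of Ifit3 may be split with its near copy Ifit3b. Rsad2 (viperin, which makes a chain-terminating nucleotide) had 56 UMIs in 8 cells labelled DKO and 39 UMIs in 31 cells labelled WT. Cmpk2, a mitochondrial nucleotide kinase whose gene lies beside Rsad2, had 23 and 12 UMIs. The Rsad2 counts thus came from few cells in the library labelled DKO and from many in that labelled WT.

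The other groups of the list differed by less than 1.5-fold, apart from Oasl2, an oligoadenylate synthetase-like gene, with 8 UMIs in the hepatocytes labelled DKO and 16 in those labelled WT (ratio 0.48, 0.18 to 1.18). Among sensors, Ifih1 stood at 47.0 and 45.0 CPM and Ddx58 (RIG-I, which senses RNA ends) at 21.7 and 23.9 CPM in the DKO and WT classes. Eif2ak2 (PKR, which halts translation on double-stranded RNA) stood at 17.8 and 12.9 CPM, a ratio of 1.38 (1.08 to 1.77). Among signalling genes, Stat2 stood at 51.2 and 39.8 CPM (ratio 1.29, 1.12 to 1.48) and its partner Irf9 at 29.1 and 34.7 CPM (0.84, 0.71 to 0.99). So the components of 1 DNA-binding complex stood on opposite sides of 1 by small amounts. The ubiquitin-like modifier Isg15 had 71 UMIs in the DKO class and 59 in the WT class, and its protease Usp18 had 128 and 109. Of the GTPases, Gbp3 had a ratio of 1.35 (1.07 to 1.70), and Gbp2, Gbp7, Ifi47, Igtp and Irgm1 had ratios of 0.80 to 1.09; reads of Igtp may be split with Irgm2, which overlaps it on the same strand, and reads of the Gbp genes among their copies.

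**Figure D2:**
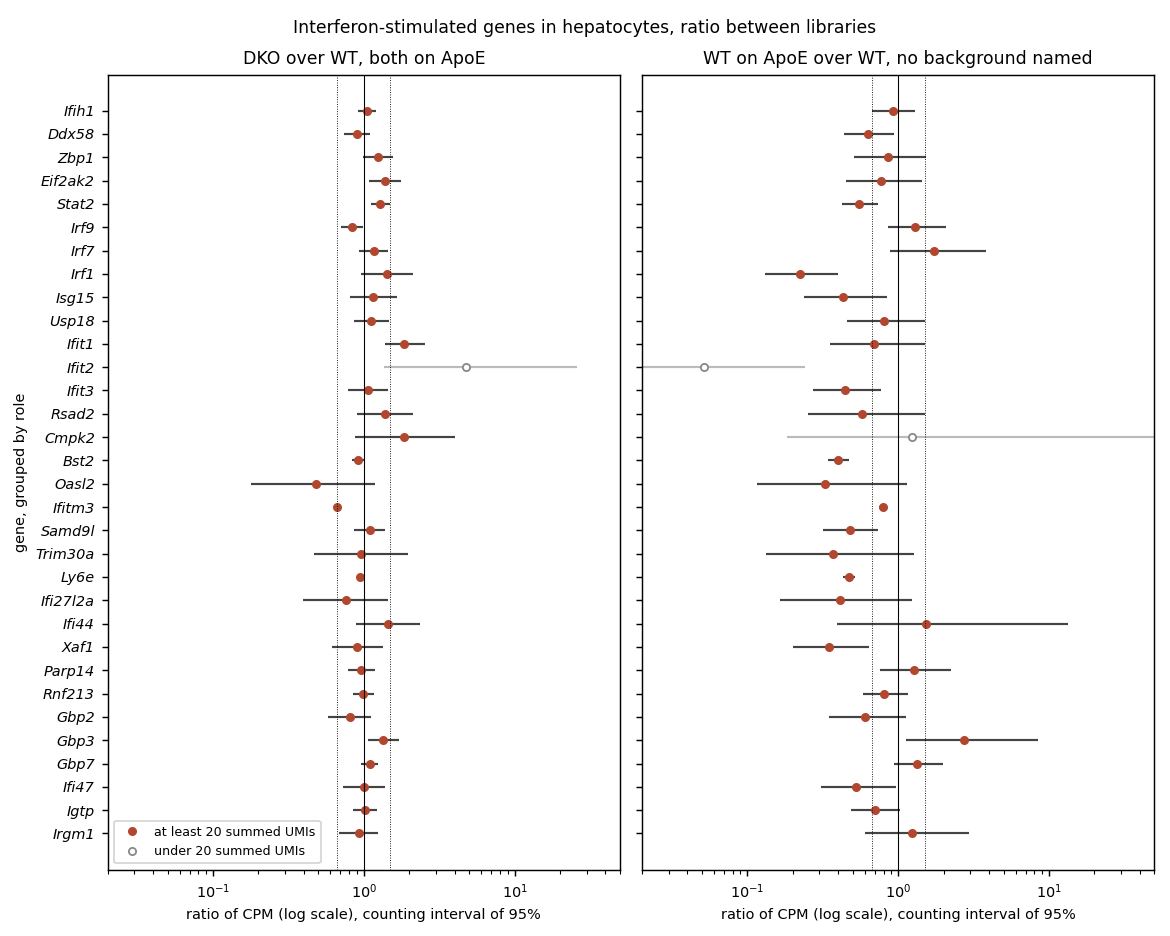
Ratio of CPM for each gene in hepatocytes on a log axis, library labelled DKO over library labelled WT (left) and WT on the ApoE background over WT with no background named (right), with 95% counting intervals; filled points have at least 20 UMIs in both libraries together, and dotted lines mark 1.5-fold. On the left most points lie between the dotted lines and Ifitm3 lies at 0.66; on the right 15 filled points lie beyond the lower line.

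The uneven spread of Rsad2 and Ifit1 over cells was followed with 10 members that stand low in resting cells: Ifit1, Ifit2, Ifit3, Rsad2, Cmpk2, Isg15, Oasl2, Usp18, Ifi44 and Irf7, chosen after their values were seen. In the hepatocyte class, 10 cells labelled DKO and 3 labelled WT had at least 5 UMIs of these genes, and 3 and 1 had at least 20. A cluster 5 cell labelled DKO, with 5282 UMIs in all, held 73, among them 25 of Ifit1, 23 of Rsad2 and 13 of Ifit3. A cluster 4 cell labelled DKO, with 7296 UMIs, held 62, among them 22 of Ifit3 and 17 of Rsad2, and had UMIs of 24 of the 32 members. The highest WT cell, in cluster 8 with 5369 UMIs, held 26. A few cells of each ApoE liver library thus carried several of the 10 genes at many UMIs while nearly all cells carried few or none, and the highest were in the library labelled DKO; in the liver with no background named, 1 cell reached 5 UMIs, with 8.

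**Figure D3:**
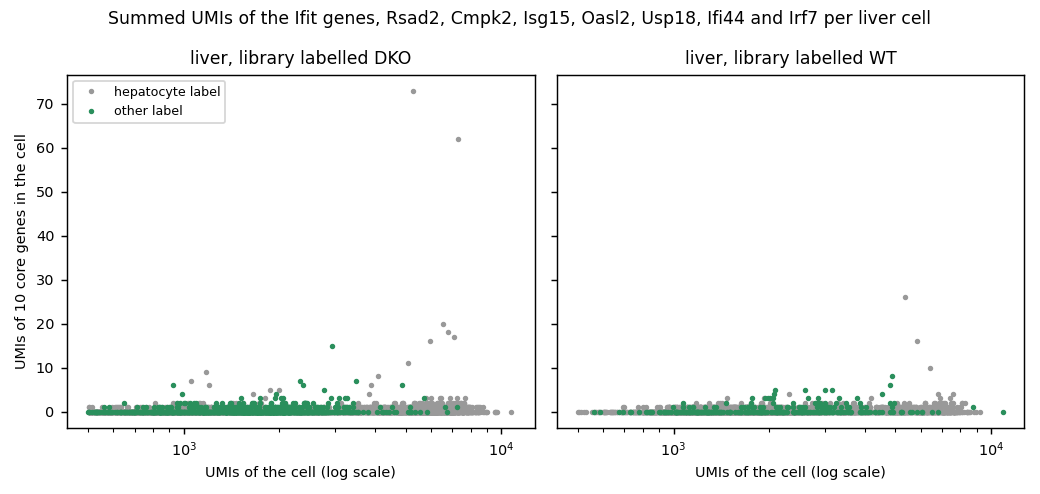
Each point is a liver cell on the ApoE background, with its total UMIs (log axis) against its UMIs of the 10 genes; the library labelled DKO is on the left. Nearly all cells lie under 5, and the highest values are 73 and 62 in the library labelled DKO and 26 in that labelled WT.

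These cells weigh on the sums. Without the 2 cells of each library with the most such UMIs, a choice made after seeing the data, Ifit1 had 98 UMIs in the DKO class and 61 in the WT class, a ratio of 1.54 (1.11 to 2.15). Rsad2 then had 16 and 29 UMIs, a ratio of 0.53 (0.27 to 1.01), on the other side of 1 from the full class, and Cmpk2 had 10 and 11. Of these 3 members Ifit1 thus stayed past the limit, and Ifitm3 kept a ratio of 0.66. By breadth, 16.6% of the hepatocytes labelled DKO and 7.85% of those labelled WT had UMIs of 5 or more different members; their median depths were 1753 and 1536 UMIs. Thinned to 1000 UMIs a cell, which left out 925 and 301 shallower cells, the shares were 0.70% and 0.57%.

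Clusters 5 and 4 hold the highest of those cells, and were picked for them. The counts of members and the median given for these clusters include those cells. Without the highest cells, Rsad2 in cluster 5 and Ifit3 in cluster 4 fall under the minimum of summed UMIs. The distance from the shares of all genes is therefore partly set by the choice of clusters, and no shift of the list is read from it. In cluster 5, 7 of 24 tested members were higher in the library labelled DKO and 1 lower, against 9.78% and 7.39% of all genes. The members' median log2 ratio there was 0.31, against 0.01 for all genes. Ifit1 had 58 UMIs in the DKO cells of cluster 5 and 10 in the WT cells (33.6 and 7.64 CPM, ratio 4.39, 2.23 to 9.64); without the 2 highest cells of each library it had 24 and 9 (ratio 2.02, 0.91 to 4.94). Rsad2 had 28 UMIs in 4 DKO cells and 1 UMI in the WT cells (ratio 21.2, 3.51 to 867), and 2 and 1 without those cells. In cluster 4, 4 of 21 tested members were higher and 0 lower, against 8.38% and 16.3% of all genes. Ifit3 had 30 UMIs in the DKO cells of cluster 4 and 3 in the WT cells (ratio 10.4, 3.23 to 53.2), of which 24 and 2 lay in 2 cells; without the highest cells it had 6 and 3. The differences of Rsad2 and Ifit3 in these clusters rested on 1 or 2 cells of the library labelled DKO. Elsewhere, Zbp1, a sensor of Z-form nucleic acid, had 36 UMIs in 34 DKO cells of cluster 8 and 6 UMIs in 6 WT cells (ratio 4.22, 1.76 to 12.3), so it was not held by a few cells. Rnf213, a large ubiquitin ligase, had 27 and 18 UMIs in cluster 0 (ratio 2.35, 1.25 to 4.53), while Ly6e in cluster 2 stood at 191 and 322 CPM (ratio 0.59, 0.48 to 0.72). Bst2 in cluster 1 stood at 84.4 and 127 CPM (0.66, 0.45 to 0.96), and Ifit3 in cluster 7 had 9 and 15 UMIs (0.28, 0.11 to 0.68), of which 5 and 13 lay in 2 cells.

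Among the other liver cells, Ifitm3 was lower in the library labelled DKO in each cluster with at least 50 cells in both. In T cells (cluster 9, 386 cells labelled DKO and 86 labelled WT), where all 7 T cell markers were detected, it stood at 274 CPM in the library labelled DKO and 904 CPM in that labelled WT (ratio 0.30, 0.25 to 0.37). In Kupffer-labelled cells (cluster 10) it stood at 1181 and 2035 CPM (0.58, 0.49 to 0.69), and in endothelial cells (cluster 12) at 940 and 1880 CPM (0.50, 0.39 to 0.63). Albumin transcripts moved with it: Alb stood at 12130 and 25191 CPM in the T cells, at 17457 and 35226 CPM in the Kupffer-labelled cells and at 23330 and 34724 CPM in the endothelial cells. Per 1000 Alb UMIs, Ifitm3 had 22.6 UMIs in T cells, 25.8 in B cells and 25.4 in the hepatocyte class of the library labelled DKO, and 35.9, 30.4 and 32.6 in those of the library labelled WT. In T and B cells the ratio of the transcripts was thus close to that of the hepatocytes of the same library, and how much of the Ifitm3 of those cells was free RNA was not tested. Kupffer-labelled cells had 67.7 and 57.8 Ifitm3 UMIs per 1000 Alb UMIs in the DKO and WT libraries, above the hepatocytes of both. For Ly6e, B cells had 65.7 and 38.3 UMIs per 1000 Alb UMIs, against 7.32 and 6.57 in the hepatocyte class.

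**Figure D4:**
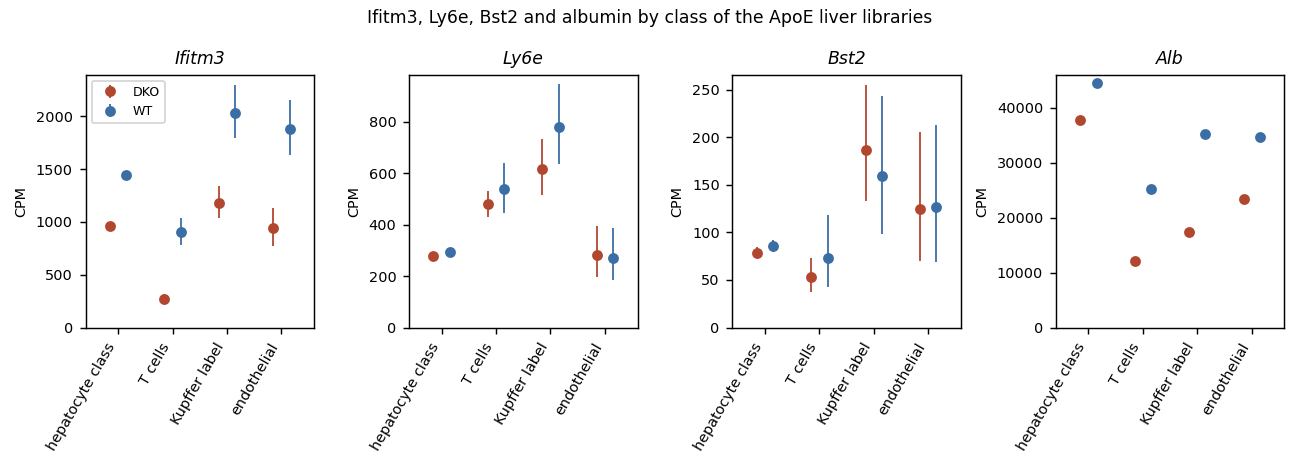
CPM of Ifitm3, Ly6e, Bst2 and Alb in 4 classes of the ApoE liver libraries, DKO left of WT in each pair, with 95% counting intervals for the members and none drawn for Alb. Ifitm3 and Alb are lower in the library labelled DKO in all 4 classes, while the Ly6e and Bst2 intervals overlap in every class.

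In the T cells 6 of 24 tested members were higher in the library labelled DKO and 3 lower, where 20% and 19.1% of all genes were, so the list did as genes in general there. Xaf1, a pro-apoptotic interferon target, had 42 UMIs in the DKO T cells and 5 in the WT ones (57.4 and 21.6 CPM, ratio 2.65, 1.05 to 8.58). Samd9l, an antiviral and growth-restraining factor, stood at 158 and 99.5 CPM (1.59, 1.01 to 2.61) and Gbp7 at 80.6 and 134 CPM (0.60, 0.38 to 0.96). Gm42418 took 104154 CPM in the DKO T cells and 26580 CPM in the WT ones. In the Kupffer-labelled cells 1 of 14 tested members was higher and 3 lower, against 21.9% and 23.5% of all genes. All 8 Kupffer markers were detected in that cluster, with summed levels of 1124 and 1929 CPM, beside summed hepatocyte markers of 42374 and 98431 CPM. With 162 and 79 cells, Ifitm3 was its only member past the limit with an interval that left out 1.

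In aortic smooth muscle (subtypes VS1 to VS3, 1034 cells labelled DKO and 636 labelled WT) Bst2, Isg15, Ifit3 and Irgm1 were lower in the library labelled DKO, and the list's counts lay near those of all genes. Of 20 tested members 2 were higher (Xaf1 and Parp14) and 4 lower (Isg15, Ifit3, Bst2 and Irgm1), against 8.31% and 12.9% of all genes, and the median log2 ratio was -0.22, against -0.08 for all genes. Bst2 had 69 UMIs in the smooth muscle labelled DKO and 82 in that labelled WT (42.5 and 77.0 CPM, ratio 0.55, 0.40 to 0.77). Isg15 had 7 and 19 UMIs (ratio 0.24, 0.09 to 0.60) and Ifit3 6 and 19 (0.21, 0.07 to 0.54). Irgm1, a GTPase that targets vacuoles, had 8 and 14 UMIs (0.38, 0.14 to 0.96). Irf1, the most abundant member there beside Ifitm3, stood at 253 and 350 CPM, a ratio of 0.72 (0.63 to 0.83), short of the limit. Parp14, a mono-ADP-ribosyltransferase, had 20 and 5 UMIs (2.63, 0.96 to 8.96) and Xaf1 26 and 9 (1.90, 0.86 to 4.60); both intervals held 1. Ifit1 had no UMI in the smooth muscle labelled DKO and 4 UMIs in that labelled WT, too few to compare. Gm42418 took 88398 CPM of the DKO smooth muscle and 41688 CPM of the WT one. Subtype VS3, led by Gm42418 and with a median of 593 UMIs a cell, gave 351 of the DKO cells and 72 of the WT cells. Ratios over the whole class therefore mix subtype makeup with level. Bst2 was lower in the library labelled DKO in VS1 (40.0 and 69.6 CPM) and in VS2 (42.0 and 92.2 CPM), both past the limit. Within VS1 the sensor Ddx58 stood at 25.0 and 44.4 CPM (0.56, 0.33 to 0.96), and within VS3 Ifitm3 stood at 319 and 642 CPM (0.50, 0.32 to 0.78), although over the whole class Ifitm3 stood at 267 and 241 CPM (1.11, 0.95 to 1.30).

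**Figure D5:**
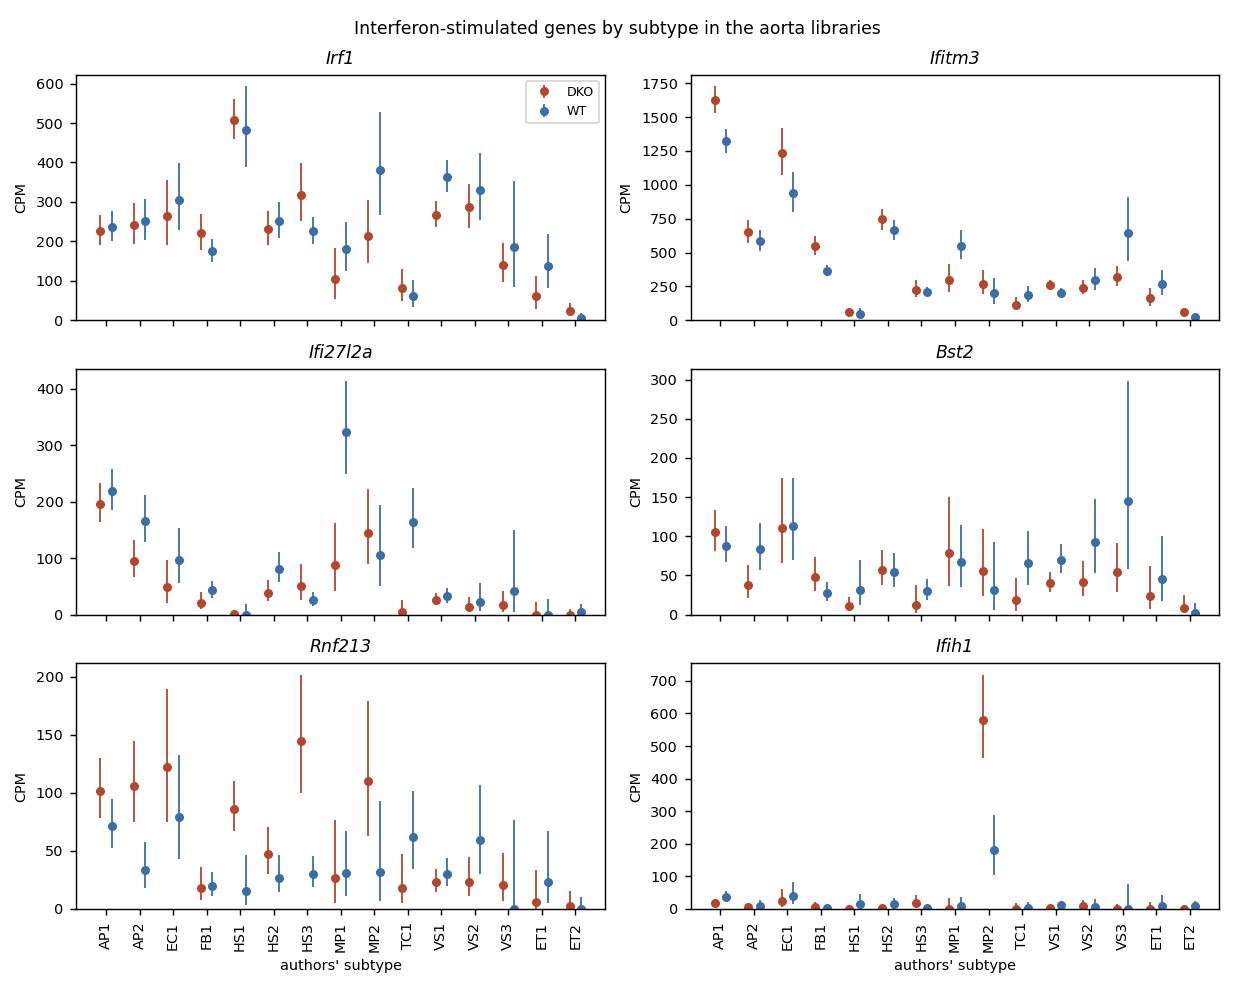
CPM of 6 members in the authors' aortic subtypes with at least 50 cells in both libraries, DKO left of WT in each pair, with 95% counting intervals. Irf1 is broad across subtypes, Ifitm3 is highest in AP1 and EC1, Rnf213 is higher in the library labelled DKO in AP2, HS1 and HS3, and Ifih1 stands out in MP2.

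Aortic macrophages were compared by subtype, and the difference between the subtypes was not tested. In MP2 (57 cells labelled DKO and 55 labelled WT), 4 of 7 tested members were higher in the library labelled DKO and 1 lower, against 22.7% and 23.5% of all genes. Ly6e was among the higher ones with 17 and 7 UMIs, and its interval held 1 (ratio 1.58, 0.62 to 4.51). Ly6e, Rsad2 and Parp14 passed the minimum of summed UMIs mainly through the DKO cells. The library in which they were high thus helped to admit them, and no shift of the list is read from the share. Ifih1 had 84 UMIs in 11 cells labelled DKO and 17 UMIs in 10 cells labelled WT (580 and 180 CPM, ratio 3.22, 1.90 to 5.78). Of the 84 UMIs, 57 lay in 2 cells; without the 2 cells of each library with the most Ifih1, chosen after seeing the data, the counts were 27 and 9 (ratio 1.97, 0.90 to 4.75). Rsad2 had 23 UMIs in 9 DKO cells and 1 UMI in the WT cells (ratio 15.0, 2.43 to 617); 13 of the 23 lay in 2 cells, and without the 2 cells of each library with the most Rsad2 the counts were 10 and 0, under the minimum. Parp14 had 19 and 4 UMIs (3.09, 1.03 to 12.5). Irf1 went the other way, with 31 and 36 UMIs (214 and 382 CPM, 0.56, 0.34 to 0.93). The summed macrophage markers of MP2 stood at 7798 and 5747 CPM and the smooth muscle markers at 10339 and 4146 CPM, and the neutrophil markers at 1022 and 117 CPM; their part in these ratios was not tested. In MP1 (82 and 118 cells), 0 of 5 tested members were higher and 3 lower, against 11.6% and 23.8% of all genes. Ifitm3 stood there at 299 and 550 CPM (0.54, 0.36 to 0.81) and Ifi27l2a had 10 and 63 UMIs (87.9 and 324 CPM, 0.27, 0.12 to 0.53).

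The stromal subtypes gave the remaining differences. In AP1, whose summed fibroblast markers stood at 17482 CPM in the library labelled DKO and 17124 CPM in that labelled WT, 6 of 21 tested members were higher and 3 lower, against 13.4% and 12.2% of all genes. The members' median log2 ratio was 0.30, against 0.02. Members with few UMIs, such as Oasl2, passed the minimum of summed UMIs mainly through the DKO cells. The library in which such members were high thus helped to admit them, and no shift of the list is read from the share or the median. Oasl2 had 20 UMIs in the DKO cells and 7 in the WT cells (ratio 3.01, 1.22 to 8.42), Xaf1 30 and 13 (2.43, 1.23 to 5.08), and Trim30a, a TRIM-family gene with close copies, 24 and 12 (2.11, 1.01 to 4.62). Gbp2 had 48 and 28 UMIs (1.81, 1.11 to 2.99). No more than 6 UMIs of each of these 4 lay in 2 cells. Ly6e stood lower in AP1, at 152 and 259 CPM (0.59, 0.45 to 0.76), as did Ifih1 with 11 and 25 UMIs (0.46, 0.21 to 0.98).

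In HS1, 2 of 8 tested members were higher in the library labelled DKO and 3 lower, against 26.2% and 17.9% of all genes. Rnf213 had 67 UMIs in 46 DKO cells and 3 UMIs in 3 WT cells (86.6 and 15.9 CPM, 5.44, 1.78 to 27.0), and Zbp1 had 35 and 17 UMIs (45.2 and 90.3 CPM, 0.50, 0.27 to 0.95). Rnf213 was higher as well in HS3, at 144 and 29.9 CPM (4.83, 2.75 to 8.67), and in AP2, at 106 and 33.8 CPM (3.13, 1.64 to 6.39). In smooth muscle as a whole Rnf213 stood at 22.8 and 33.8 CPM (0.68, 0.42 to 1.10), so the higher level was not shared by all aortic cells. Ifi27l2a was lower in the library labelled DKO in AP2 (95.1 and 167 CPM), in HS2 (38.9 and 80.9 CPM) and in TC1, where it had 1 and 40 UMIs (ratio 0.03, 0.00069 to 0.17). Its close copy Ifi27l2b may take some of its reads. Bst2 was lower in AP2 (38.0 and 83.3 CPM, ratio 0.46, 0.22 to 0.88) and in TC1, with 4 and 16 UMIs (0.28, 0.07 to 0.87). In HS2, Ifit3 had 3 and 19 UMIs (0.16, 0.03 to 0.53) and Ddx58 13 and 26 (0.49, 0.23 to 0.99).

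The ApoE background was compared in hepatocytes labelled WT, 4015 cells on the ApoE background and 261 cells with no background named. Many members of the list were lower on the ApoE background. Of 30 tested members, 3 were higher and 15 lower (50%), against 16.1% and 24% of all 10259 genes tested, and the median log2 ratio was -0.60, against -0.09 for all genes. The tables were deposited separately and hold different gene sets, the median depths of these cells were 1536 and 3018 UMIs, and table, library and background cannot be told apart.

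Membrane-bound effectors were among the lower members. Bst2 stood at 85.6 CPM on the ApoE background and 214 CPM without it (ratio 0.40, 0.34 to 0.47), and Ly6e at 292 and 618 CPM (0.47, 0.43 to 0.52). Ifitm3 stood at 1446 and 1830 CPM (0.79, 0.75 to 0.83), short of the limit. Both Bst2 and Ly6e therefore differed more than the most abundant member. Of the signalling genes, Irf1 had 46 UMIs on the ApoE background and 21 without it (5.25 and 23.3 CPM, 0.22, 0.13 to 0.40), and Stat2 stood at 39.8 and 72.2 CPM (0.55, 0.42 to 0.73). Among the low members, Xaf1 stood at 6.61 and 18.9 CPM (0.35, 0.20 to 0.64) and Samd9l at 15.9 and 33.3 CPM (0.48, 0.32 to 0.73). Ifit3 stood at 9.92 and 22.2 CPM (0.45, 0.27 to 0.77) and Isg15 at 6.73 and 15.5 CPM (0.43, 0.24 to 0.84). Gbp3 went the other way with 132 and 5 UMIs (15.1 and 5.55 CPM, 2.71, 1.13 to 8.49). Over all cells the authors call hepatocytes, 616 of them with no background named, Gbp3 stood at 15.1 and 10.1 CPM, short of the limit. The lower members thus came from several roles of the list. The summed Kupffer markers in the 4 control clusters used ran from 93 to 271 CPM.

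Genes of the pathway outside the list were counted by the same limit. Of 81 such genes, 73 are in the ApoE liver table, 75 in the aorta table and 73 in the table with no background named; of 6 interferon genes, 1 is in each liver table. In hepatocytes, DKO against WT, 7 of 51 tested were higher and 3 lower, beside the 4.99% and 5.8% of all genes given above, with a median log2 ratio of 0.00. Cxcl9, a chemokine induced by interferon gamma, stood at 14.5 CPM in the library labelled DKO and 22.1 CPM in that labelled WT (0.66, 0.52 to 0.82), and Socs3, a brake on JAK-STAT signalling, had 34 and 14 UMIs (2.32, 1.22 to 4.69). In smooth muscle 2 of 33 were higher and 7 lower, beside 8.31% and 12.9% of all genes. There Socs3 stood at 132 and 231 CPM (0.57, 0.47 to 0.69) and Il10rb, a chain of the type III interferon receptor, at 12.9 and 36.6 CPM (0.35, 0.20 to 0.62). On the ApoE background against none, 1 of 45 was higher and 20 lower, beside 16.1% and 24% of all genes, with a median log2 ratio of -0.51. Cxcl10 had 23 UMIs on the ApoE background and 19 without it (2.62 and 21.1 CPM, 0.12, 0.06 to 0.24), Cxcl9 stood at 22.1 and 102 CPM (0.22, 0.17 to 0.28), and the antigen transporter Tap1 at 7.18 and 23.3 CPM (0.31, 0.18 to 0.53). In that comparison the list and the rest of the pathway were lower on the ApoE background by similar medians, while in hepatocytes labelled DKO against those labelled WT both medians lay near 0.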

How the data were processed

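The submitters' processing notes name Cell Ranger 7.1.0 and the mouse build mm10. The authors' filters on cells are not stated in these sources. The authors deposited raw UMI counts per gene and cell in 3 tables with metadata per cell, from which cell types, subtypes and clusters were taken; 27 metadata columns were not used. The 32 members, the pathway list and the marker lists were chosen with earlier results of these data known. UMIs were summed per class and library and divided by the class total (CPM), with exact Poisson intervals; ratios have exact conditional binomial intervals, all at 95%. A ratio counts as past the limit at 1.5-fold with at least 20 summed UMIs. Since each group is 1 library, no test was run. For a gene at 0 in a library, the ratio entering a median was set at a floor of 3 counts. The hepatocyte class is clusters 0 to 8 and 13 of the ApoE liver table and clusters 3, 4, 8 and 12 of the other, since a cluster was kept where its 10 leading genes (at least 200 CPM and 2-fold the rest, after adding 20 CPM) held no more markers of another class. Other clusters were compared with at least 50 cells in both libraries. Named members had at least 20 UMIs, an interval without 1 and a ratio past 1.5-fold, up to 8 each way; the 6 most abundant members per table and further members by role, chosen after their values were seen, were named too. Leading genes of a cluster are not results there. Doublets were not called. The ratios and their intervals were tested on simulated Poisson sums of the hepatocyte class. Those sums lack the gathering of UMIs in few cells, so they do not test the intervals for such members. The other steps were not tested by simulation. Python 3.11.15, numpy 2.4.6, scipy 1.17.1, pandas 2.3.3 and matplotlib 3.10.9 were used. The alternatives were the denominator, minimum UMIs, fold, weight and depth of cells, a filter on genes per cell and the makeup of the hepatocyte class.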

Additional observations from a re-analysis of the deposited data

Results flagged for a closer look

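For 4 members the library labelled DKO stood higher than the library labelled WT in 1 cell class and lower in another; in none of these cases was the difference between the classes tested. Ifih1 had a ratio of 3.22 in aortic MP2, where 57 of its 84 UMIs labelled DKO lay in 2 cells, and 0.46 in AP1. Ifit3 had a ratio of 10.4 in liver cluster 4, where 24 of 30 UMIs labelled DKO lay in 2 cells, and 0.16 in aortic HS2, where 2 of 3 UMIs labelled DKO and 10 of 19 labelled WT did. Ifitm3 had a ratio of 2.75 in the aortic erythroid subtype ET2, on 21 UMIs labelled DKO and 8 labelled WT, and 0.30 in liver T cells, where Alb was lower as well. Zbp1 had a ratio of 4.22 in liver cluster 8 and 0.50 in aortic HS1, and in both classes no more than 6 of its UMIs per library lay in 2 cells.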

How the results depend on the processing

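No paired analysis was possible because each group is 1 library. Over 35 single ratios and 177 alternatives, 144 values stayed close, 32 moved and 1 reversed: Ddx58 on the ApoE background over none had a ratio of 1.21 with cells thinned to 500 UMIs, against 0.63; the cause was not tested. In hepatocytes, DKO over WT, the 2 higher members became 1 with a minimum of 50 UMIs, 4 with the abundant transcripts out of the totals, 4 in clusters 5, 7 and 8 alone, 0 at a fold of 2 and 1 without the 2 highest cells per library, a choice made after seeing the data. The 2 lower members became 1, 1, 1 and 1 under the first 4 of these and 4 when thinned to 500 UMIs, and the median log2 ratio of 0.06 was 0.24 in clusters 5, 7 and 8. In smooth muscle the 2 higher members became 0 with a minimum of 50, 1 as a mean over cells, 0 when thinned and 1 at a fold of 2, and the 4 lower became 1 with a minimum of 50, 10 with a minimum of 1, 7 as a mean over cells and 2 when thinned. On the ApoE background over none, the 3 higher members became 0 with all cells the authors call hepatocytes and 1 at a fold of 2; the lower count stayed at 10 to 16. As a mean over cells, Kupffer-labelled cells were highest for 10 members in the liver labelled WT (18 by sums), aortic macrophages for 7 in the library labelled WT (4 by sums) and aortic endothelial cells for 9 in that labelled DKO (4 by sums). The hepatocytes with 5 or more members were 0.70% labelled DKO and 0.57% labelled WT when thinned to 1000 UMIs, and 3.21% and 1.10% without Ifitm3, Ly6e and Bst2. The top 1% of hepatocytes held 6.43% of member UMIs labelled DKO and 5.54% labelled WT, 4.11% and 3.52% when thinned, and 13.3% and 8.42% without those 3. Depth limits members such as Ifit2 and Cmpk2, whose counts in a class are often under 20.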

Other observations

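Rsad2 stood high in cells led by haemoglobin genes. In the aortic cells the authors label erythroid it stood at 578.1 CPM in the library labelled DKO and 676 CPM in that labelled WT, and in the haemoglobin-led liver cluster 14 at 326 CPM (121 cells labelled DKO) and 342 CPM (16 cells labelled WT). It is among the leading genes of that cluster and of the erythroid subtype ET2, so this is a description of those clusters. In the libraries labelled DKO and WT it stood at 795 and 863 CPM in ET2, against 110 and 146 CPM in the erythroid subtype ET1. Liver neutrophils also held Rsad2, at 249 CPM (18 UMIs) in those labelled DKO and 120 CPM (4 UMIs) in those labelled WT. In aorta Isg15 was highest in the erythroid label as well, at 58.0 CPM in the library labelled DKO and 116 CPM in that labelled WT. In the library labelled DKO, macrophages stood close at 55.6 CPM, with overlapping intervals. Ifit2, Cmpk2, Oasl2, Usp18 and Ifi44 had no UMI in the erythroid cells of either library. Within the label, Isg15 stood at 76.4 CPM in ET2 of the library labelled DKO and 152 CPM in that of the library labelled WT (ratio 0.50, 0.31 to 0.81). Irf7, which drives later interferon production, had 2 and 18 UMIs there (0.12, 0.01 to 0.49). Of the UMIs in the ET2 cells labelled WT, 26 of 56 for Isg15 and 9 of 18 for Irf7 lay in 2 cells. Of the 19 Ifit3 UMIs in the WT cells of HS2, 10 lay in 2 cells.

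Ifi27l2a stood at 1136 CPM in 14 cells of liver cluster 17 labelled DKO and 1936 CPM in 21 labelled WT, the highest levels of that member in the liver libraries, in a cluster labelled B cells.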
